A study of Mus musculus with 15 samples.

Results

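The Kupffer cell genes examined here were Clec4f, Vsig4, Cd5l, Marco, Csf1r, Adgre1, C1qa, C1qb, C1qc and Cd68. They were chosen by name, as the RefSeq transcripts that carry one of these 10 mouse symbols. The 10 genes matched 10 transcripts, 1 for each gene, among 28167 transcripts in the files. For Cd68, 1 further transcript, with no symbol in the tables used, had equal CDS counts in all 14 libraries and was left out. All 10 passed the filter on low values, a mean count of 10 or more, and entered every test.

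The data were ribosome profiling libraries of whole liver, in which fragments of mRNA protected by ribosomes are sequenced. There were 14 libraries, 2 at each of 7 circadian times (CT), 4 h apart from CT0 to CT24, and each came from a liver of its own. Every liver came from a wild-type male C57BL/6N mouse of 8 to 10 weeks. The mice had lived in 12 h of light and 12 h of dark and then in constant darkness. Deaths began after a day of darkness, so groups differed in time of death and, with it, in time spent in darkness. The last pair is CT24 by its sample name and CT00 by another label, and was taken as CT24. The libraries hold no matched mRNA measurement, so a read level here combines mRNA amount and ribosome binding.

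Kupffer cells are the resident macrophages of the liver. They sit in the sinusoids, take up particles, bacteria and old red cells from portal blood, and depend on signals through the receptor CSF1R. They are a minority beside hepatocytes, so their mRNA is a small fraction of a whole-liver sample. In such bulk samples fewer cells of a type and less RNA per cell cannot be told apart.

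The 10 transcripts held 143706 reads over the 14 libraries. Their sum per library ran from 6934 reads in CT20 replicate 1 to 15116 in CT12 replicate 1. Libraries held 40593197 to 90458783 counts in total (median 56446208). The 21 transcripts of the major urinary proteins (Mup), abundant products of hepatocytes, took 42.1% to 70.7% of all counts. In CT16 replicate 2 every nonzero transcript count was even (100%, against 48.9% to 50.4% in the other libraries). By its label a second run of that library is held in the same table, and whether its counts are doubled is not known here. Halved, its sum over the 10 genes would be 4126 reads in place of 8252, the lowest of the libraries, while its CPM with total count scaling would not change.

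Markers of other liver cells were measured in the same way. The summed level of 8 hepatocyte markers was 37182 to 51400 CPM (counts per 1000000 of library size) with trimmed mean of M values (TMM) scaling, which takes library size from the bulk of transcripts. The 10 Kupffer cell genes summed to 127 to 211 on that scale. Markers of blood leukocytes were near the floor. The 8 genes of monocytes and neutrophils summed to 0.725 to 2.94 CPM, the 6 genes of T and NK cells to 0 to 0.388 and the 5 genes of B cells to 0 to 1.39. Ccr2, the chemokine receptor of blood monocytes, had 76 reads in all 14 libraries together, and Cx3cr1, the fractalkine receptor, had 116. Of the 10 genes Marco alone, at 0.875 to 3.38 CPM, overlapped the monocyte and neutrophil sum, which it exceeded in 6 of 14 libraries, and the part of such cells in its level was not tested.

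Sequences around the start codon, the site where coding reads begin, are shown for 6 of the 10 genes. They are from the GRCm38.p6 RefSeq annotation, 12 bases on each side of the start codon, which is in capitals.

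Clec4f (chr6:83656018-83656044, minus strand): cggtgcaggaggATGaaggaggccgag
Cd5l (chr3:87357990-87358016, plus strand): gctgcctgggccATGgctccattgttc
Vsig4 (chrX:96293354-96293380, minus strand): gcttcaaataggATGgagatctcatca
C1qa (chr4:136897823-136898750, minus strand, across an intron): ggcagggacaccATGgagacctctcag
C1qb (chr4:136882293-136882319, minus strand): gaggctgagctgATGaagacacagtgg
C1qc (chr4:136892548-136892854, minus strand, across an intron): tacaccctcaggATGgtcgttggaccc

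The C1q chains are shown together because their reads are set against each other, and Cd5l, Clec4f and Vsig4 because Cd5l and Clec4f had the highest levels per coding length and Vsig4 has upstream frames described at the end.

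Levels were first compared between genes per coding length, as reads in the coding sequence (CDS) per kilobase, in CPM with TMM scaling (mean ± SD, n = 14). Cd5l, a secreted scavenger protein that macrophages release into blood, was at 26.9 ± 6.24. Clec4f, a C-type lectin made by Kupffer cells, was at 25.9 ± 3.74. Their order was not separable, since Cd5l was above Clec4f in 8 of 14 libraries. The 3 chains of C1q, the recognition protein of the classical complement pathway, followed. C1qc was at 23.1 ± 4.04, C1qb at 18.9 ± 3.28 and C1qa at 17.8 ± 3.06. C1qb lay above C1qa in 9 of 14 libraries, so these neighbours overlapped.

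A gap followed. Every C1qa value, from 12.8 to 22.6, was above every Csf1r value, from 7.05 to 12.1. Csf1r encodes the receptor for the macrophage growth factors CSF1 and IL-34, and its mean was 9.75 ± 1.46. Vsig4, a complement receptor for C3 fragments, was at 7.87 ± 1.52 and was below Csf1r in 13 of 14 libraries. The lysosomal glycoprotein gene Cd68 was at 4.78 ± 1.00, and Adgre1, which encodes the F4/80 antigen, was at 3.31 ± 0.623. Marco, a scavenger receptor for bacteria, was lowest at 1.05 ± 0.457, with no overlap with Adgre1. The order of the 10 means was the same with total count scaling. Against the 17299 transcripts tested, Cd5l stood above 89.8% of them and Marco above 33.0%.

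**Figure D1:**
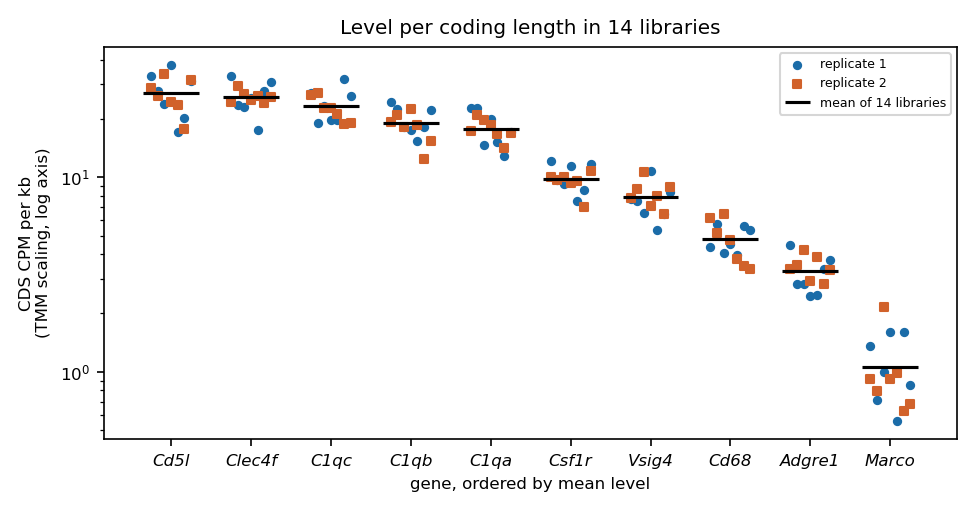
Level per coding length (y axis, CDS CPM per kilobase, TMM scaling, log axis) of the 10 genes, ordered by mean. Each point is 1 of 14 libraries and the bar is their mean. Cd5l, Clec4f and the C1q chains overlap between 12.4 and 37.8, while Marco lies between 0.556 and 2.15, below every other gene.

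The question of the design is whether ribosome binding follows circadian time. For the Kupffer cell genes no rhythm passed the test. In an edgeR quasi-likelihood F test of a 24 h cosine, 0 of the 10 genes had an adjusted p under 0.05. Of the 17299 transcripts tested, 11.3% did (1947), and for only 10 genes a count of 0 is close to that share. At an unadjusted p under 0.05, 1 of 10 genes passed (C1qa), against 24.4% of all transcripts tested (4224). The DESeq2 likelihood ratio test called 0 of the 10 as well, beside 2539 transcripts. The count of members stayed at 0 with the counts of CT16 replicate 2 halved and with that library left out. Among 10672 other transcripts whose mean count lay within the range of the members, 14.2% were called. The fitted peak-to-trough difference of the members ran from 0.23 to 0.59 on the log2 scale with a median of 0.38, beside a median of 0.44 over all transcripts tested. With total count scaling the members ran from 0.26 to 0.78 with a median of 0.58, beside 0.64 over all. On that scale 0 of 10 members and 1427 of the 17299 transcripts were called. With TMM scaling, leaving out 1 library moved Marco most, to 0.22 without CT8 replicate 2 and 0.95 without CT20 replicate 1. Transcripts of like depth that were called had a median of 0.95, and 144 of those 1511 had a difference no larger than the highest member. With TMM scaling, most called transcripts of like depth thus had a larger difference than any member. How often a difference of the members' size is called at this number of livers was not counted.

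The 7 times were also compared without assuming a cosine. With an F test over the time points in edgeR, 0 of 10 genes were called, beside 7.08% of all transcripts (1225). At an unadjusted p under 0.05, 2 of 10 genes passed, Cd5l and C1qa, against 18.1% of all transcripts (3131). CT24 and CT0 are the same clock phase a day apart, with a longer time in darkness at CT24. Between them 0 of 10 genes were called by edgeR and 0% of all transcripts, with 0 of 10 genes and 873 transcripts at an unadjusted p under 0.05. The log2 difference, CT24 minus CT0, ran in size from 0.01 (Cd5l) to 0.56 (Marco), and 7 of 10 genes were lower at CT24.

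**Figure D2:**
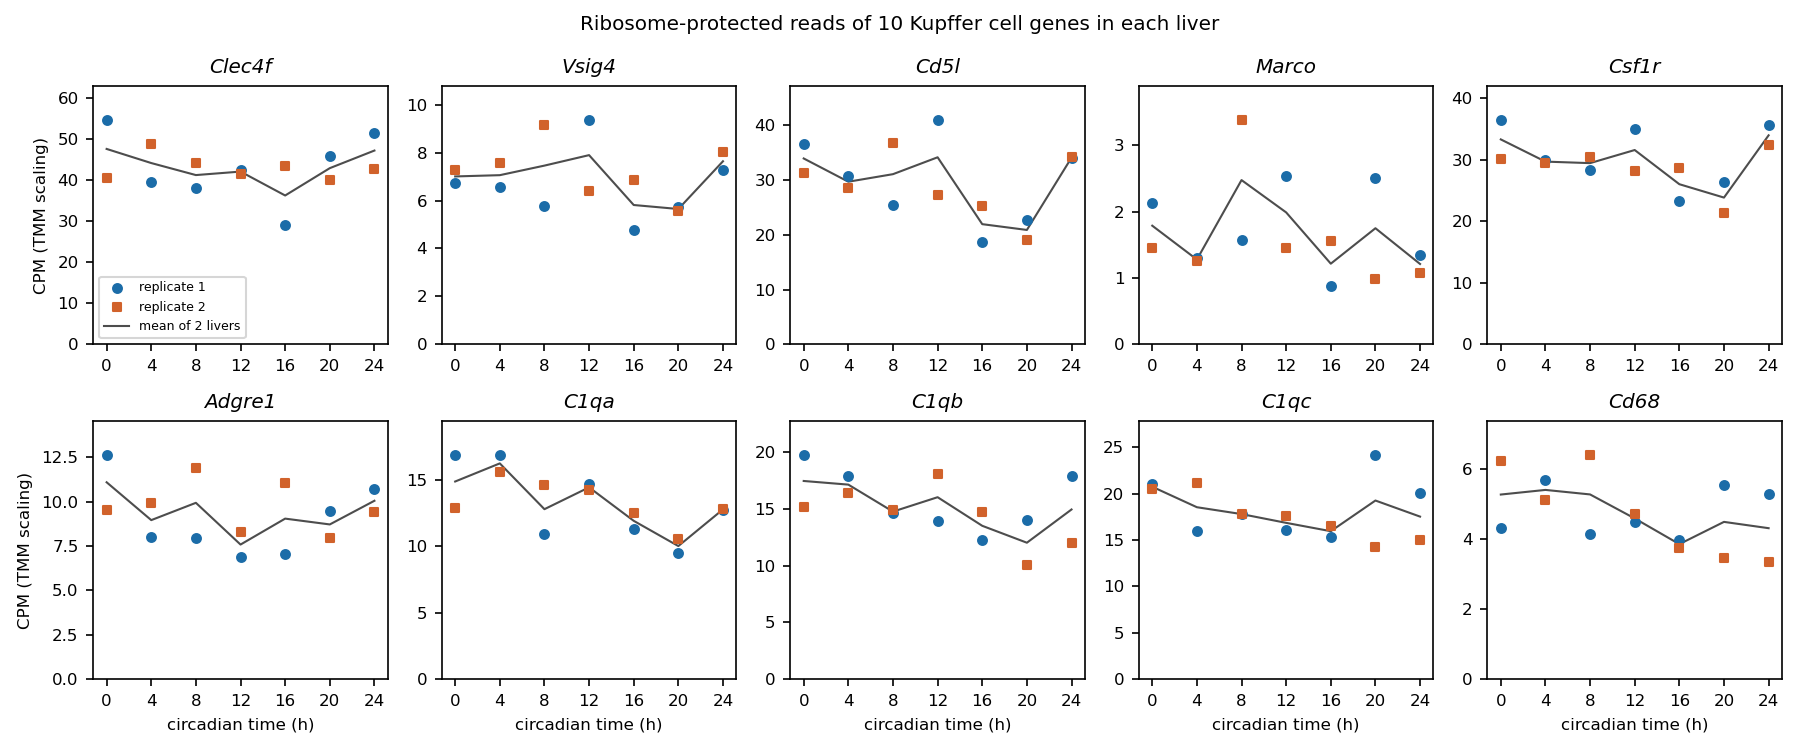
CPM (y axis, TMM scaling, from 0) of each gene by circadian time (x axis, h). Circles are replicate 1, squares replicate 2 and the line joins the means of 2 livers. For Clec4f the 2 livers of CT16 differ more (29.2 and 43.3) than the means of CT0 and CT16 (47.6 and 36.2).

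The lectin Clec4f, the most read of the 10, is given first. In CPM with TMM scaling, Clec4f in the 2 livers of each time, from CT0 to CT24, was 54.7 and 40.5, 39.5 and 48.8, 38.2 and 44.3, 42.6 and 41.6, 29.2 and 43.3, 45.8 and 40.0, and last 51.6 and 42.8. The highest and the lowest liver were CT0 replicate 1 and CT16 replicate 1, and at both of those times the other liver lay within the range of the rest. The fitted peak-to-trough difference was 0.28 ± 0.15 on the log2 scale (SE), with an edgeR adjusted p of 0.432. It was 0.71 (edgeR adjusted p = 0.0947) with total count scaling and 0.17 without CT16 replicate 1.

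Marco was the most variable gene and the least read, with 54 to 214 reads per library. Its level ran from 0.875 CPM in CT16 replicate 1 to 3.38 in CT8 replicate 2, with a median of 1.45. The coefficient of variation over the 14 libraries was 42.6%, against 14.4% for Clec4f. The livers of one time differed by a median factor of 1.75, and the time means ran from 1.21 ± 0.192 at CT24 to 2.47 ± 1.29 at CT8 (SD, n = 2). At CT8 the livers read 1.56 and 3.38, both above the 1.35 and 1.07 of CT24. The adjusted p for a rhythm was 0.604 in edgeR.

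Cd5l had the largest fitted course of the 10 with TMM scaling and all libraries, while Adgre1 had it with total count scaling (0.78 log2). From CT0 to CT24 its 2 livers per time read 36.6 and 31.2, 30.8 and 28.6, 25.4 and 36.7, 41.0 and 27.3, 18.6 and 25.3, 22.7 and 19.1, and last 34.0 and 34.2. The 4 livers of CT16 and CT20 held the 4 lowest values, and the next, 25.4 in CT8 replicate 1, was close to the 25.3 of CT16 replicate 2. The fitted difference was 0.59 ± 0.25 (log2, SE), a factor of 1.50, with the fitted peak at 5.47 ± 1.44 h. The adjusted p was 0.236 for the cosine and 0.149 for the 7 times (edgeR), so neither passed.

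Vsig4 ran from 4.78 in CT16 replicate 1 to 9.38 in CT12 replicate 1 (median 6.80), and its highest time mean was 7.90 ± 2.09 at CT12 and its lowest 5.65 ± 0.0925 at CT20 (SD, n = 2). Both values at CT20, 5.71 and 5.58, were below both values at CT0, 6.75 and 7.27. One liver of CT8 (5.77) and one of CT16 were near or under them, and the adjusted p was 0.439 (edgeR cosine fit).

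Csf1r, the growth factor receptor, ran from 21.4 in CT20 replicate 2 to 36.5 in CT0 replicate 1. At CT24 it was 35.6 and 32.3, above the 26.3 and 21.4 of CT20, and the time means of CT24 and CT20 were 33.9 ± 2.30 and 23.8 ± 3.49 (SD, n = 2). The adjusted p was 0.454 for the cosine and 0.417 for the 7 times in edgeR. Its ligands, Csf1 and Il34, were read at 2.53 ± 0.508 and 0.422 ± 0.226 CPM (SD, n = 14), and 0 of the 2 were called for a rhythm.

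Adgre1 was between 6.90 (CT12 replicate 1) and 12.7 (CT0 replicate 1) CPM. Its time means ran from 7.59 ± 0.976 at CT12 to 11.1 ± 2.21 at CT0 (SD, n = 2), with an adjusted p of 0.50 in edgeR. Cd68 was between 3.33 in CT24 replicate 2 and 6.40 in CT8 replicate 2. The livers of one time differed by a median factor of 1.45 for Cd68, above the factor of 1.40 between its highest and lowest time means, and its adjusted p was 0.432 (edgeR cosine fit).

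C1qa had the lowest adjusted p of the 10 in the cosine fit. In the same order its livers read 16.8 and 12.9, 16.9 and 15.6, 11.0 and 14.6, 14.7 and 14.2, 11.3 and 12.5, 9.47 and 10.6, and last 12.7 and 12.8. CT4 was highest (16.2 ± 0.945) and CT20 lowest (10.0 ± 0.776, SD, n = 2), and the values of these times did not overlap. The livers of one time differed by a median factor of 1.10, less than for every other member but C1qc, and the fitted peak-to-trough difference was 0.46 ± 0.18 (log2, SE) with a peak at 5.81 ± 1.31 h. The edgeR adjusted p was 0.196 for the cosine and 0.209 for the 7 times. It became 0.047 for the cosine without CT8 replicate 1, and stayed above 0.05 on leaving out any other single library.

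For C1qb the highest and lowest libraries were CT0 replicate 1 at 19.8 and CT20 replicate 2 at 10.1, and its adjusted p was 0.408. C1qc, again from CT0 to CT24, read 21.0 and 20.5, 15.97 and 21.1, 17.8 and 17.8, 16.1 and 17.6, 15.4 and 16.6, 24.2 and 14.3, and last 20.1 and 15.0. The highest and the lowest value both came from CT20, and the adjusted p was 0.602 (edgeR cosine fit).

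Because C1q is built from equal numbers of its A, B and C chains, their reads per coding length were set against each other within each library, which needs no library scaling. The genes lie side by side on chromosome 4 of GRCm38.p6, C1qb at chr4:136880126-136886200, C1qc at chr4:136889801-136892936 and C1qa at chr4:136895916-136898844. C1qc took 38.8% ± 4.77 of the reads per length of the 3 chains, C1qb 31.5% ± 2.31 and C1qa 29.8% ± 3.91 (SD, n = 14). C1qa was below C1qc in 12 of 14 libraries, by 0.38 ± 0.37 on the log2 scale (SD), a ratio of 0.767 with an adjusted p of 0.00183 (exact two-sided sign-flip permutation test, 3 pairs). C1qb was below C1qc in 13 of 14 libraries, with a mean log2 ratio of -0.29 ± 0.25, a ratio of 0.815 and an adjusted p of 0.00183 in the same exact test. The log2 ratio of C1qa to C1qb was -0.09 ± 0.22, with C1qa higher in 5 of 14 libraries and an exact adjusted p of 0.156.

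**Figure D3:**
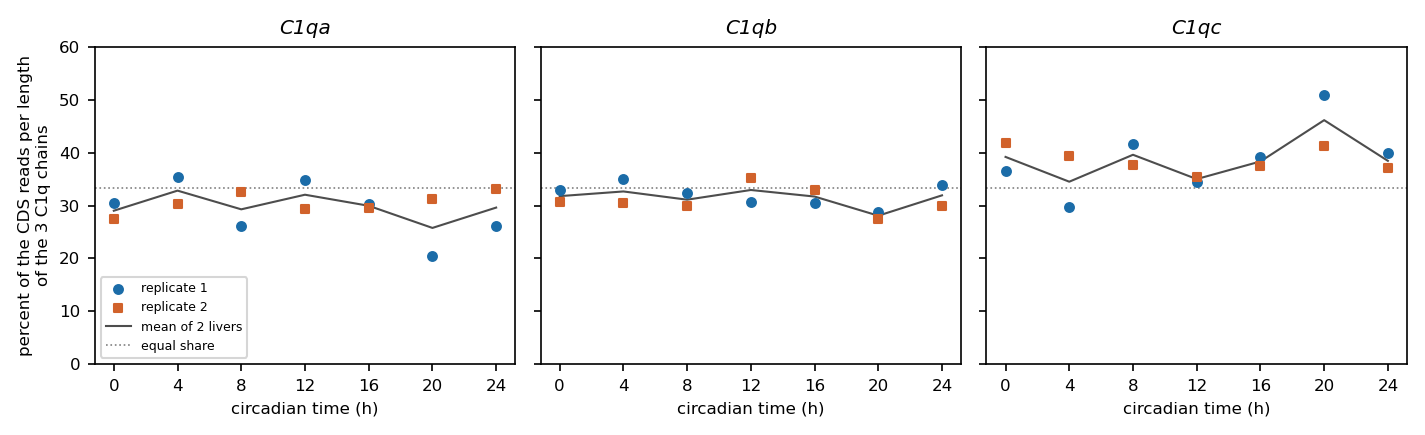
Share of each chain (y axis, percent of the CDS reads per length of the 3 chains) by circadian time (x axis, h). Circles and squares are replicates 1 and 2, the line joins their means and the dotted line marks equal shares. C1qc is above the dotted line in all but 1 library (29.7% in CT4 replicate 1) and reaches 51.0% in CT20 replicate 1.

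The widest departure was CT20 replicate 1, where C1qa was at 20.4%, C1qb at 28.7% and C1qc at 51.0%. In CT4 replicate 1 the order was turned, with C1qa at 35.4% and C1qc at 29.7%. Leaving out any single library kept the mean log2 ratio of C1qa to C1qc between -0.43 and -0.31 and its adjusted p (exact sign flips) at or below 0.00366. Reads counted over the whole transcript per transcript length moved C1qa against C1qb to -0.21, with an exact adjusted p of 0.00232, so whether these chains differ depended on the region counted.

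Levels of C1qa and C1qb over the 14 libraries (log2 CPM, TMM) gave a Pearson r of 0.67 (permutation p = 0.00927, 0.0278 adjusted over 3 pairs) and a Spearman rho of 0.61 (permutation p = 0.0221, adjusted 0.0580). Leaving out the 2 libraries farthest from the C1qa median gave an r of 0.71. For C1qb and C1qc r was 0.56 (permutation p = 0.0402, adjusted 0.0603), rho was 0.56 (permutation p = 0.0387, adjusted 0.0580) and r fell to 0.33 without the 2 farthest libraries. For C1qa and C1qc r was 0.00 (permutation p = 0.993 before and after adjustment) and rho 0.11 (permutation p = 0.705, the same adjusted), while r was 0.60 without the 2 farthest libraries. The values of both pairs with C1qc thus moved with the 2 libraries left out, and for C1qa and C1qc CT20 replicate 1 was one of them.

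Over the 45 pairs of members r was above 0 in all 45, from 0.00 to 0.93 with a median of 0.46. Pairs of a member and another transcript of at least 100 counts on average had a median r of -0.03. These points share their library, depth and scaling factor. The closest pair, named after the values were seen, was Cd5l and Csf1r at 0.93, with r = 0.96 within the first replicates and 0.92 within the second. Vsig4 and Cd5l came next at 0.88.

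The share of liver reads that came from the 10 genes together was then followed over the day. As a percent of all counts its time means from CT0 to CT24 were 0.0264 ± 0.00634, 0.0174 ± 0.00217, 0.0143 ± 0.000264, 0.0145 ± 0.00308, 0.0163 ± 0.000723, 0.0134 ± 4.87e-05 and 0.0202 ± 0.00322 (SD, n = 2). The CT0 mean was 1.97 times the CT20 mean, and both livers of CT0 (309 and 219 CPM with total count scaling) were above every liver of CT4 to CT20. One liver of CT24, at 225, lay between them.

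On the TMM scale the course was smaller. In time order the summed CPM of the 2 livers was 211 and 175, 172 and 184, 155 and 190, 187 and 168, 127 and 164, 166 and 133, and last 196 and 171. The highest time mean was 1.33 times the lowest, beside a median factor of 1.21 between the livers of one time. The 4 livers of CT16 and CT20, at 127 to 166, reached up past the 155 of CT8 replicate 1. The ratio was 1.52 without CT16 replicate 2, which leaves CT16 with its low liver alone. The mean share of Mup transcripts was lowest at CT0 (42.1% and 49.5% in its livers), and at CT8 they took 62.8% and 68.6%. With them left out of the total, the highest over lowest time mean of the summed level was 1.37. The part of Mup reads in the course by total count was not tested beyond this rescaling.

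**Figure D4:**
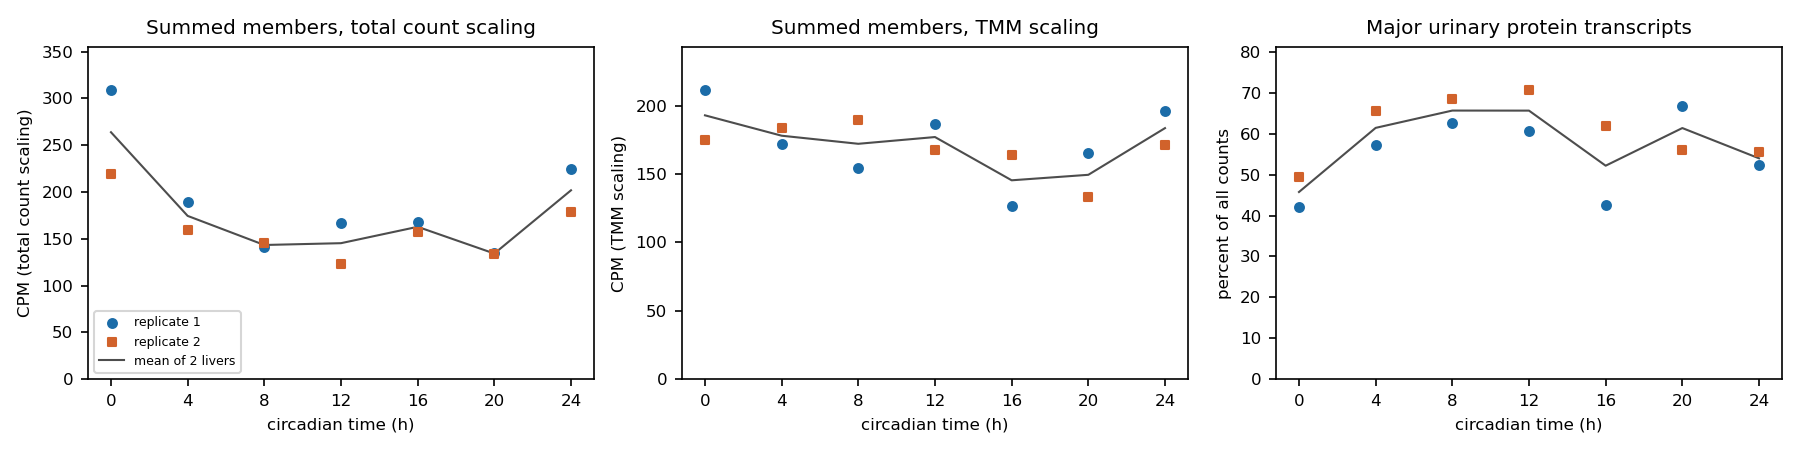
Summed CPM of the 10 genes with total count scaling (left) and with TMM scaling (middle), and the percent of all counts from Mup transcripts (right), by circadian time (x axis, h). Circles and squares are replicates 1 and 2 and lines join the means of 2 livers. The left course runs from a mean of 264 at CT0 to 134 at CT20, and the middle one from 193 at CT0 to 146 at CT16.

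The choice of scale, test and adjustment also moved single calls. JTK_CYCLE, the rank test of the study's methods, run with exact P on CPM of the library total without adjustment over transcripts, called 2 of 10 members, Clec4f (P = 0.00132) and Adgre1 (P = 0.0471), and 17.6% of all transcripts (3049). On that scale Clec4f was 79.9 and 50.7 at CT0 and 59.0 and 44.8 at CT24, while every liver of CT8 and CT12 was between 30.6 and 38.1. With total count scaling in edgeR the F test over 7 times called 2 of 10, Cd5l (adjusted p = 0.0443) and Adgre1 (adjusted p = 0.0329), beside 12.7% of all transcripts (2197). Both counts of 2 in 10 were close to these backgrounds. JTK_CYCLE on TMM values, which was adjusted over transcripts, called 0 of 10. The 2 runs of JTK_CYCLE thus differ in adjustment as well as in scale.

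The other non-parenchymal cells of the liver gave a yardstick within each library. Summed with TMM scaling, 10 markers of sinusoidal endothelial cells were at 226 ± 22.4 CPM, 10 of stellate cells and fibroblasts at 236 ± 32.2, 8 of cholangiocytes at 16.1 ± 3.65 and the 5 erythroid genes found, of 7, at 56.0 ± 12.0 (SD, n = 14). The 10 Kupffer cell genes were at 171 ± 22.8. All of these lists had their lowest time mean at CT16 on this scale, at 189, 189, 11.3, 44.3 and 146 CPM. With total count scaling the lowest mean was at CT12 for endothelial (183), stellate (182) and erythroid (39.7) genes, at CT16 for cholangiocytes (12.9) and at CT20 for the Kupffer cell genes (134). The Kupffer share of all non-parenchymal marker reads was 24.2% ± 2.03, from 21.4% to 28.9%. Its time means ran from 22.6% ± 1.02 at CT20 to 25.7% ± 0.115 at CT12, a factor of 1.14, beside 1.33 for the summed level. The largest spread within a time was at CT16, with 21.4% and 28.9%, which span nearly the whole range.

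**Figure D5:**
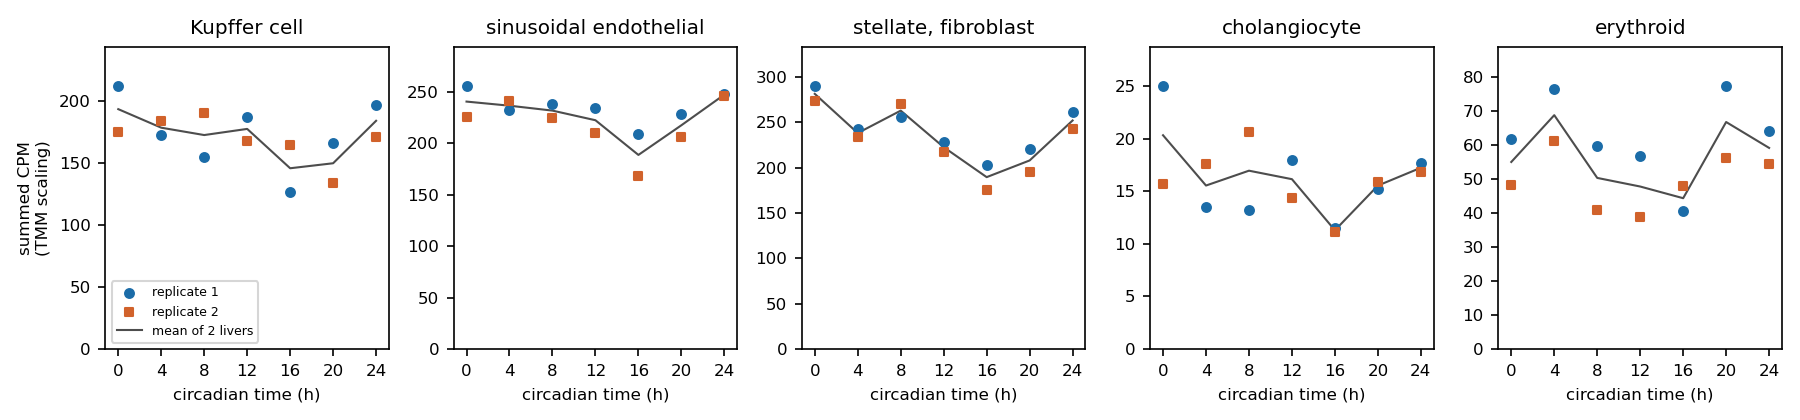
Summed CPM (y axis, TMM scaling, from 0) of marker lists for 5 cell types by circadian time (x axis, h). Circles and squares are replicates 1 and 2 and lines join the means of 2 livers. Each list has its lowest mean at CT16 on this scale, between 11.3 for cholangiocytes and 189 for endothelial and for stellate cells, while with total count scaling only cholangiocytes did.

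Relative to endothelial markers, the Kupffer cell genes stood at a ratio of 0.759 ± 0.0953, with time means between 0.685 at CT20 and 0.801 at CT0. From the endothelial list 2 genes, Oit3 (adjusted p = 0.0333, peak to trough 0.65 log2) and Dnase1l3 (adjusted p = 0.0338, 0.51 log2), were called for a rhythm in edgeR. Pdgfrb, the platelet-derived growth factor receptor of stellate cells, was called as well (0.0087, peak to trough 1.03 log2), as was the cholangiocyte factor Sox9 (0.0058, 1.39 log2). Of the 8 hepatocyte markers, Fgb (fibrinogen beta chain, adjusted p = 0.0390) and the cytochrome P450 Cyp2e1 (adjusted p = 0.0026) were called in edgeR. Calls were thus 2 of 10 endothelial, 1 of 10 stellate, 1 of 6 cholangiocyte and 2 of 8 hepatocyte genes tested. Over all transcripts 11.3% were called. Of the 3 erythroid, 4 monocyte and neutrophil and 1 B cell genes tested, 0 were called. No difference in rhythm between these genes and the Kupffer cell genes was tested.

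Other genes of macrophages, and the plasma partners of C1q, which hepatocytes also make, were counted from 6 lists of 29 genes in all, every one of them tested. Of the 29, 1 was called for a rhythm by edgeR, beside 11.3% of all transcripts, 0 over the 7 times, and 0 between CT24 and CT0. None of the 8 other phagocyte receptors, 7 myeloid signalling genes, 4 lysosomal and secreted products, 3 iron and heme genes or 2 ligands of CSF1R was called. Mrc1, the mannose receptor, which endothelial cells of the liver also make, was the most read receptor at 41.1 ± 5.25 CPM. Timd4, a phosphatidylserine receptor of resident Kupffer cells, was at 2.78 ± 0.868, and Fcna, the macrophage ficolin, at 18.6 ± 2.73 (SD, n = 14).

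The call was C4b, complement component C4, in the list of C1q partners (0.46 log2, adjusted p = 0.0432). C1ra and C1s1, the proteases that join C1q, and Serping1, their inhibitor, were not called, with adjusted p of 0.602, 0.548 and 0.426.

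The genes whose course was most like the mean course of the members were found among 8135 genes by Pearson r over the 14 libraries, as a description. They were Col14a1 (0.92), Cd44 (0.84), Laptm5 (0.83), Flna (0.82), Adgre5 (0.81), Fbn1 (0.81), Calm3 (0.80), Csrp1 (0.79), Siglec1 (0.79) and Col3a1 (0.78). Siglec1 and Laptm5 are macrophage or leukocyte genes, and Col14a1, Col3a1 and Fbn1 encode matrix proteins. These values share the libraries and the scaling factors.

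Within the transcripts, 97.7% of the reads of the 10 genes were in the CDS, 2.23% in the 5′UTR and 0.0863% in the 3′UTR. The 5′UTR share ran from 0.220% in Adgre1 to 5.04% in C1qc (757 reads). C1qb had 4.71% and Vsig4 3.37%, and Csf1r and Cd5l had 2.85% and 2.33%. The median over 17090 tested transcripts with a 5′UTR was 3.91%, so C1qc and C1qb lay above it and the other 8 below. The C1qc share varied between 1.87% and 10.5% across libraries and the C1qa share between 0% and 2.69%. All 11 reads in the 5′UTR of Marco were in CT4 replicate 1.

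Per length, 5′UTR read density was 0.541 of CDS density in C1qc and 0.425 in Vsig4, above the median of 0.351, and 0.241 in C1qb, 0.0666 in C1qa and 0.0209 in Cd68. Reads were deposited per region, so their position inside the 5′UTR is not known here. The 5′UTRs of Vsig4 and C1qc, shown because these members had the highest density, hold ATGs followed by a stop codon within the 5′UTR. The ATG, and the stop codon where it falls inside the window, are in capitals.

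Vsig4, 33 bases before the start codon: aagaggATGgaaggaTGA
Vsig4, 25 bases before the start codon: ggaaggATGaatagaagtagcttcaaaTAG
C1qc, 64 bases before the start codon (first bases): aacagtATGttcctgtctgggagaacagga

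The first of these frames has 3 codons before its stop, the second 7 and the C1qc frame 12. C1qa also has 1 such frame, of 12 codons, and Marco 2, and both had low density, while C1qb, Cd5l, Cd68 and Clec4f have no upstream ATG. The 5′UTR length in the annotation differs from that in the files for C1qb (179 and 157 nt), Marco (247 and 307 nt), C1qa (106 and 107 nt) and C1qc (72 and 73 nt).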

How the data were processed

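The authors deposited raw counts, with no normalization, for 3 regions (5′UTR, CDS, 3′UTR) of each of 28167 RefSeq transcripts in every library. Per the methods, adapters were clipped, rRNA reads removed, the rest aligned to mm10 with Bowtie2 2.1.0.0, and reads of 26 to 32 nt that matched the genome exactly, at a single place, kept. The treatment of reads shared by transcripts of one locus is not given in the sources used here. Region lengths were deposited in the same files.

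The 3 regions were added per transcript. Symbols came from the RefSeq table (331 IDs had none). Transcripts with a mean count of 10 or more (17299) were fitted with edgeR 4.0.16 in R 4.3.3 (TMM scaling, quasi-likelihood F tests of cosine and sine of a 24 h period, and of 7 time points), with Benjamini-Hochberg adjustment over all of them and a threshold of 0.05. SEs of phase and of peak-to-trough came from a least-squares cosine fit of log2 CPM (prior count 2). JTK_CYCLE was written anew with ties kept. DESeq2 1.42.0 gave size factors and a likelihood ratio test. Correlations used 100000 permutations, and sign-flip tests all 16384 patterns. Fits were tested on simulated data. Python 3.11.15 with numpy 2.4.6, scipy 1.17.1 and pandas 2.3.3 was used.

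With 2 livers per time an SD rests on 2 values. Every member and every other gene of the lists that passed the rhythm threshold was named, as were the 10 genes most alike, except that a list of transcription factors with 7 genes, with its calls, is not reported here. The members, lists and tests were chosen with earlier results of these data known. Alternatives were other scalings, count minimums of 1 and 100, CDS reads, 1 transcript per gene, the replicate block, other tests, CT16 replicate 2 halved and libraries left out.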

Additional observations from a re-analysis of the deposited data

How the results depend on the processing

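Kupffer cell genes called for a rhythm numbered 0 under every scaling, count minimum, region, block and test tried, except JTK_CYCLE on total counts. That run, without adjustment over transcripts, called 2 (Clec4f and Adgre1). Leaving out single libraries gave 0 to 1 (C1qa without CT8 replicate 1). Over all transcripts the rhythm calls were 1244 with 1 transcript per gene and 1499 to 2062 with a library left out. They were 1427 with total count scaling and 2539 with the DESeq2 likelihood ratio test. JTK_CYCLE called 594 on TMM values, adjusted over transcripts, and 3049 on total counts without that adjustment. These 2 counts thus differ in threshold as well as in scale. Over the 7 times total count scaling gave 2 members and 2197 transcripts, and left-out libraries 0 members and 856 to 1417 transcripts. Between CT24 and CT0 members stayed at 0, and transcripts were 1 with a count minimum of 1, 1 with total count scaling and 0 to 2 with a library left out. The replicate number as a block gave 0 members in each comparison and 6 transcripts between CT24 and CT0. Same-numbered libraries share only a number: the correlation of their deviations ran from -0.06 to 0.19 over 21 pairs of times, above 0.1 in 3. Total count scaling moved the median CT24 minus CT0 difference of all transcripts from 0.01 to -0.30 (log2), and 10 of 10 members were then below 0. Differences near 0 changed sign with it in Cd5l (-0.31), Vsig4 (-0.18) and Csf1r (-0.29), and with DESeq2 size factors in Cd5l (-0.0011). With single libraries left out, the range was -0.21 to 0.21 in Clec4f, -0.10 to 0.11 in Cd5l, -0.54 to 0.034 in C1qb, -0.33 to 0.063 in Adgre1, -0.66 to 0.0042 in Cd68 and -0.10 to 0.16 in Csf1r. Of the C1q ratios, C1qa to C1qb passed the threshold with whole-transcript reads (-0.21), and left-out libraries gave -0.11 to -0.06 for it, -0.43 to -0.31 for C1qa to C1qc and -0.34 to -0.25 for C1qb to C1qc. The highest over lowest time mean of the summed level was 1.97 with total count scaling and 1.26 to 1.52 with a library left out. The cause of these changes was not tested. Marco, with 54 to 214 reads per library, and 2 livers per time limit what could be seen.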
